A study of Mus musculus with 8 samples.

Results

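The collagen genes are described here in GFP-positive cells sorted from kidneys of FSP1-GFP mice, after ischemia and reperfusion and in controls. Members were all genes whose symbol is Col, a number, a and a number, taken from probe sets with 1 gene symbol. This gave 42 chains of 18193 genes measured, represented by 82 probe sets. They were split by type into 6 basement membrane chains (type IV), 11 fibrillar chains and 25 other chains. RefSeq lists 44 such genes in the mouse, and Col28a1 and Col6a6 were not analysed here.

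All mice carried an FSP1-eGFP transgene on a C57BL/6 background, were 6 months old and are labelled male. In the ischemic group (5 mice) the artery and vein of the left kidney had been clamped for 45 min, and kidneys were taken 3 days after the clamp was released. The 3 controls are called normal in their titles and sham in their source names, so that the labels do not settle whether they were operated on. Each kidney was digested with collagenase, GFP-positive cells were sorted, and amplified RNA was hybridised to Affymetrix mouse expression arrays, 1 per kidney. GFP in these mice is driven by the promoter of S100a4 (FSP1), a small calcium-binding protein of fibroblasts that leukocytes also make. The sort is therefore not limited to fibroblasts. Whether every sorted cell had an active transgene was not tested.

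Collagens are helical trimers of alpha chains that make up much of the extracellular matrix. Fibrillar collagens (types I, II, III, V, XI, XXIV and XXVII) assemble into fibres, and types I and III are the bulk of the matrix laid down in kidney fibrosis. Type IV collagen forms the sheet-like network of basement membranes: the Col4a1 and Col4a2 chains are found in nearly all of them, the Col4a3, Col4a4 and Col4a5 chains form the network of the mature glomerular filter, and Col4a6 pairs with Col4a5 in Bowman's capsule and some tubules. The other chains include the microfibrillar type VI, the multiplexins XV and XVIII of basement membrane zones, the fibril-associated collagens and the transmembrane collagens.

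Col4a1 and Col4a2 lie next to each other on mouse chromosome 8 and are transcribed in opposite directions from a common start region. Their promoter windows (RefSeq, build GRCm38.p6, 250 bases before to 50 after the transcript start) are shown because the levels of these chains moved together from array to array. For Col4a5 and Col4a6, which are also neighbours transcribed in opposite directions, Pearson's r was -0.20. Col4a6 was dim in all arrays (4.69 to 5.31), so this r cannot show whether that pair moved together. An effect of promoter sequence on the levels was not tested. The Col4a1 and Col4a2 start sites are 21 bases apart, and their windows share 78 bases, which read as reverse complements. Capitals mark the letters CCAAT and GGGCGG on either strand (ATTGG and CCGCCC when reversed), the sequences for which the CCAAT box and the GC box are named. The Col4a1 window is chr8:11312777-11313076, minus strand, and the Col4a2 window is chr8:11312555-11312854, plus strand.
Col4a1: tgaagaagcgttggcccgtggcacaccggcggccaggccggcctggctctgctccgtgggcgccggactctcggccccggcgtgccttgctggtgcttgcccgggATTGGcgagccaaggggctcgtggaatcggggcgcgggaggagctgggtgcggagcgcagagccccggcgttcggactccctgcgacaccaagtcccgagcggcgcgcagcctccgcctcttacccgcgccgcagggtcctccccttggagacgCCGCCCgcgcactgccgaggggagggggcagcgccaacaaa
Col4a2: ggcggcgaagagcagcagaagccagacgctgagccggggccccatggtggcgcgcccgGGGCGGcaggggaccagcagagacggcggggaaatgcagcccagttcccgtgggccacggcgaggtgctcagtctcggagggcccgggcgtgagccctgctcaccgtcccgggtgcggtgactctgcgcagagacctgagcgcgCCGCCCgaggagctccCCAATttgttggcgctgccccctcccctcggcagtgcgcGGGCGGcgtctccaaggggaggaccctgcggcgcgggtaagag

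The windows of Col4a4 (chr1:82586800-82587099, minus strand), the type IV chain with the lowest p, and of Col1a2 (chr6:4505368-4505667, plus strand), which encodes the alpha 2 chain of type I collagen, are given for comparison with the same marking. The Col1a2 window holds 2 CCAAT and 2 GGGCGG matches, whereas neither is written in the Col4a4 window.
Col4a4: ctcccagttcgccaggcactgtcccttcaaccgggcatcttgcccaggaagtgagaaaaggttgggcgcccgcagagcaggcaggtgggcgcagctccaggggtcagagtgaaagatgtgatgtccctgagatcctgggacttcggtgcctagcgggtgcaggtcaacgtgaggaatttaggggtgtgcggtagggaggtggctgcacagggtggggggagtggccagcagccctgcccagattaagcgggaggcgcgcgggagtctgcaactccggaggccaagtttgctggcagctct
Col1a2: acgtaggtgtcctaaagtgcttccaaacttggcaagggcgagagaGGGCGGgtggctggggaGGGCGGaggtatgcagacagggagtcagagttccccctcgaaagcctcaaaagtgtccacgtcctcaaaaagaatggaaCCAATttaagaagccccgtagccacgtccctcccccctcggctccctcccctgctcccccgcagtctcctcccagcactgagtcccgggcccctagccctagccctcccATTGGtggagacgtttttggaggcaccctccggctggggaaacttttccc

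The RefSeq table held windows for 33 of the 42 chains, 36 windows in all. GGGCGG was present in 22 of them (61.1%), against 35.7% of all 32851 mouse windows. CCAAT was present in 13 (36.1%), against 37.4% of all windows, and TATAAA, likewise searched on both strands, in 5 (13.9%), against 13.6%. No motif match was taken as a binding site.

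Some arrays stood apart before any comparison was made. Ischemic array 1 correlated with the others over all genes with a median r of 0.753, against 0.850 to 0.913 for the rest. The Xist probe sets report the RNA that silences 1 X chromosome in females. Their mean signal was 9.01 in ischemic 1, 7.19 in ischemic 2 and 9.78 in normal 1, although these arrays are labelled male. It was 4.40 to 4.55 in the other 5 arrays. The Y-linked genes Eif2s3y and Kdm5d read 5.84 and 6.86 in ischemic 1 and 5.84 and 6.35 in normal 1. In ischemic 2 they read 7.78 and 7.88, within the range of the other 5 arrays (7.68 to 8.87 and 7.50 to 9.20). The arrays of high Xist signal were thus not alike in Y-linked signal. Results are therefore also given without ischemic 1, without ischemic 1 and normal 1 together, or within the arrays of low or high Xist signal. Among the high Xist arrays normal 1 is the only control, so every difference within them rests on that array. S100a4 itself read 11.30 to 12.22 in all 8 arrays. Values throughout are log2(intensity + 16) after quantile normalization, on which a deposited intensity of 1 is 4.09, so differences of dim chains are understated.

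Markers of several cell types were measured in the sorted RNA, and since probe sets differ in brightness, each count describes its own list only. Of 14 fibroblast and pericyte markers, 5 reached the median gene level (5.93) and 3, Mfap5, Lum and Gli1, were below the lower quartile (4.84), whereas all 10 endothelial and all 8 macrophage markers reached the median. The mean of the fibroblast and pericyte list was 5.30 to 5.85 in ischemic arrays and 5.27 to 5.68 in normal arrays. Its median difference was 0.23, with 0 of 14 at an unadjusted p under 0.05 (against 7.13% of all genes in either direction). In bulk RNA, fewer cells of a type and less RNA per cell cannot be told apart.

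None of the 42 chains passed limma's test at an adjusted p under 0.05 (Benjamini-Hochberg over all 18193 genes), and none of the 18193 genes did (0%). At an unadjusted p under 0.05, 4 chains differed (7.13% of all genes did, in either direction): all 4 were lower in ischemic cells (9.52% of 42, against 5.02% of all genes) and 0 were higher (against 2.11% of all genes). These 4 were Col4a3, Col4a4, Col27a1 and Col9a3. In 3 of them, Col4a4, Col27a1 and Col9a3, every ischemic array lay below every normal array (7.14% of 42, against 3.44% of all genes), and 0 chains were separated the other way (against 1.89%; either way, 5.33% of all genes). Over all chains 22 differences were positive and 20 negative, with a median of 0.03 against 0.04 over all genes. Signs were thus mixed across the family and are described by class.

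**Figure D1:**
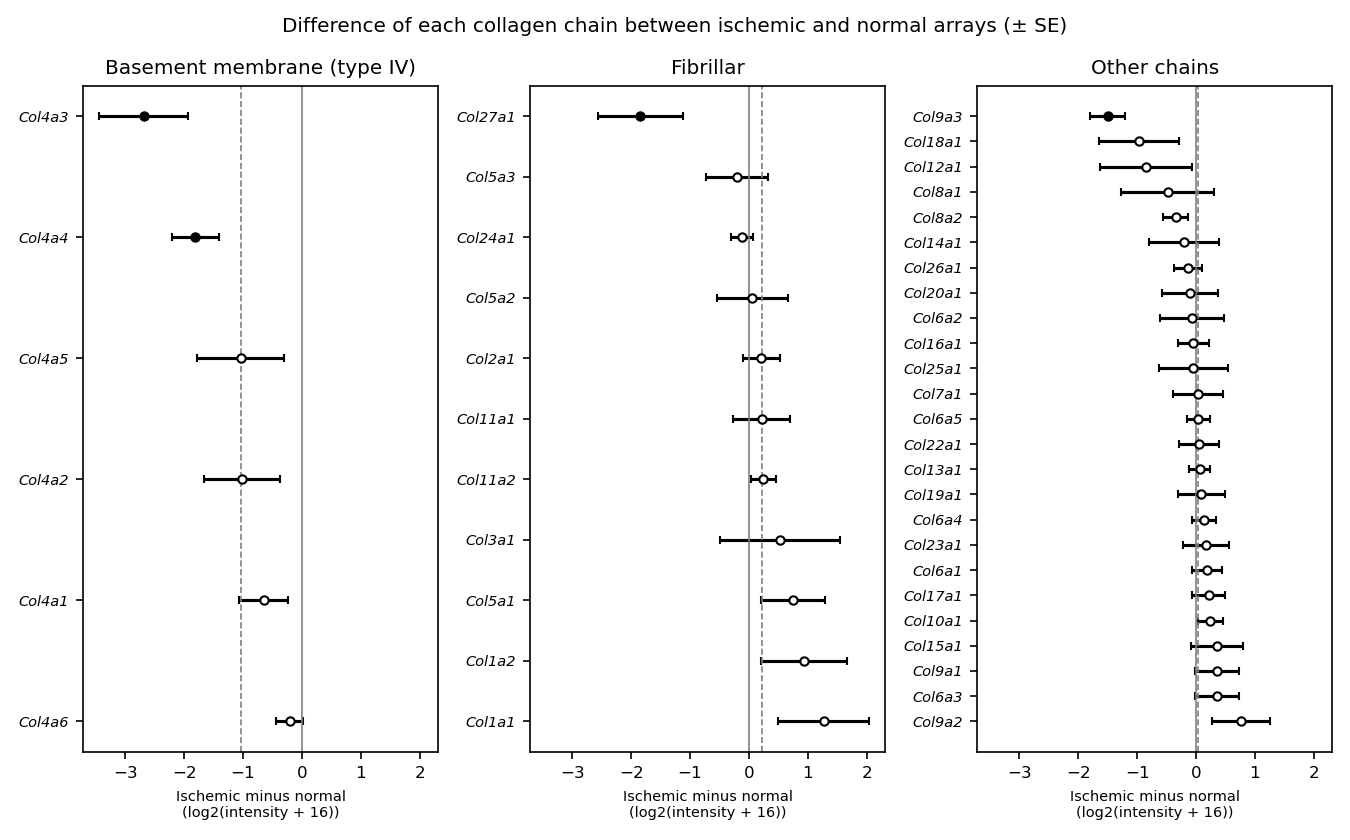
Difference between ischemic (n = 5) and normal (n = 3) arrays for each of the 42 collagen chains, in log2(intensity + 16), with its limma standard error. Filled points have an unadjusted p under 0.05 (4 chains), and the dashed line is the median of the class, at -1.03 for type IV, 0.21 for fibrillar and 0.04 for other chains; all 6 type IV points lie left of 0.

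The type IV chains of basement membranes were the class with the lowest median difference. All 6 had a negative difference between ischemic and normal cells, with a median of -1.03, where 8227 of all 18193 genes were negative and the median was 0.04. Col4a3 and Col4a4, chains of the glomerular network, had differences of -2.68 and -1.81, whereas the ubiquitous Col4a1 and Col4a2 differed by -0.64 and -1.02. The mean of the 6 chains was 5.82, 6.22, 6.47, 5.91 and 7.52 in ischemic arrays 1 to 5 and 7.87, 7.44 and 7.55 in normal arrays 1 to 3. Only ischemic 5 reached the range of the controls, and it held the highest ischemic value of 5 of the 6 chains. The class median was -0.82 without ischemic 1, -0.82 without ischemic 1 and normal 1, -0.79 within the low Xist arrays and -1.71 within the high Xist arrays. All 6 differences were negative in each of these except the high Xist arrays, where 5 were and Col4a6 was not.

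Col4a4 was the type IV chain with the lowest p. It read 5.19, 5.85, 5.93, 5.85 and 6.64 in ischemic arrays 1 to 5 and 8.52, 7.21 and 7.38 in normal arrays 1 to 3. The groups did not overlap, and normal 1 was the highest array. The difference was -1.81 ± 0.40 (SE), with an unadjusted p of 0.0016 and a limma adjusted p of 0.18. It was -1.16 within the low Xist arrays, -2.998 within the high Xist arrays (normal 1 the only control) and -1.23 without ischemic 1 and normal 1. Both unused probe sets of the gene also had negative differences, of -0.71 and -0.80, and the mean of its 3 probe sets differed by -1.11. When arrays were centred on ribosomal protein genes, Col4a4 passed the test, with a difference of -2.01 and a limma adjusted p of 0.049, a scaling under which the median difference over all genes was -0.13 in place of 0.04.

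Col4a3 lies beside Col4a4 in the genome and its product assembles with that chain. It read 4.89, 4.93, 6.11, 4.42 and 7.64 in ischemic arrays 1 to 5 and 9.38, 7.62 and 7.85 in normal arrays 1 to 3. Ischemic 5 stood just above normal 2, and the other 4 ischemic arrays were below all 3 controls. The difference was -2.68 ± 0.75 (SE), with an unadjusted p of 0.0068 and a limma adjusted p of 0.32. It was -1.68 within the low Xist arrays, where the unadjusted p was 0.12. Within the high Xist arrays it was -4.47, with normal 1, the highest array, as the only control. Without ischemic 1 and normal 1 it was -1.96, with an unadjusted p of 0.059. The second probe set differed by -1.70. No promoter window was held for Col4a3.

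Col4a5, the third chain of that network, and its partner Col4a6 lay outside the rule by which chains were named, and were chosen after their values were seen to complete the class. Col4a5 read 5.48, 4.57, 5.64, 4.45 and 7.28 in ischemic arrays 1 to 5 and 7.31, 5.10 and 7.15 in normal arrays 1 to 3. Ischemic 5 and normal 2 crossed into the range of the other group. The difference was -1.04 ± 0.74 (SE; limma adjusted p = 0.92), and the second probe set gave -1.30. Col4a6 was dim in all arrays, at 4.69 to 5.29 in ischemic and 5.02 to 5.31 in normal arrays, with a difference of -0.21 ± 0.22 (SE; limma adjusted p = 0.95).

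Deposited intensities of Col4a1 ran from 275 to 1706. On the log2 scale it read 8.56, 9.21, 8.93, 9.22 and 10.19 in ischemic arrays 1 to 5 and 9.26, 10.53 and 9.80 in normal arrays 1 to 3. Ischemic 5 was above normal arrays 1 and 3, so the groups overlapped. The difference was -0.64 ± 0.42 (SE), with an unadjusted p of 0.16 and a limma adjusted p of 0.88. It was -0.31 without normal 2 and -0.89 without ischemic 5.

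Col4a2 read 5.53, 7.58, 7.43, 6.78 and 8.67 in ischemic arrays 1 to 5 and 7.69, 8.88 and 8.09 in normal arrays 1 to 3. Ischemic 1 was more than 1 log2 unit below every other array, and ischemic 5 lay within the controls. The difference was -1.02 ± 0.64 (SE; limma adjusted p = 0.87), and it was -0.60 without ischemic 1. The chains encoded by Col4a1 and Col4a2 assemble with each other, and their levels across the 8 arrays correlated, with Pearson's r = 0.90 (exact permutation p = 0.0016, adjusted p = 0.0097 over 6 chain pairs, two-sided) and Spearman's rho = 0.93 (exact permutation p = 0.0022, adjusted p = 0.013). Without ischemic 5 and normal 2, the arrays farthest from the Col4a1 median, r was 0.84 (exact permutation p = 0.040, adjusted p = 0.12) over 6 arrays. Within the ischemic group there were 5 arrays and within the normal group 3, too few for a value of their own. For Col4a3 and Col4a4 no pooled r is given, since the groups of Col4a4 did not overlap. Pearson's r was -0.20 for Col4a5 and Col4a6, 0.05 for Col5a1 and Col5a2, -0.53 for Col6a1 and Col6a2 and 0.49 for Col8a1 and Col8a2. Their exact permutation adjusted p ran from 0.33 to 0.90.

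**Figure D2:**
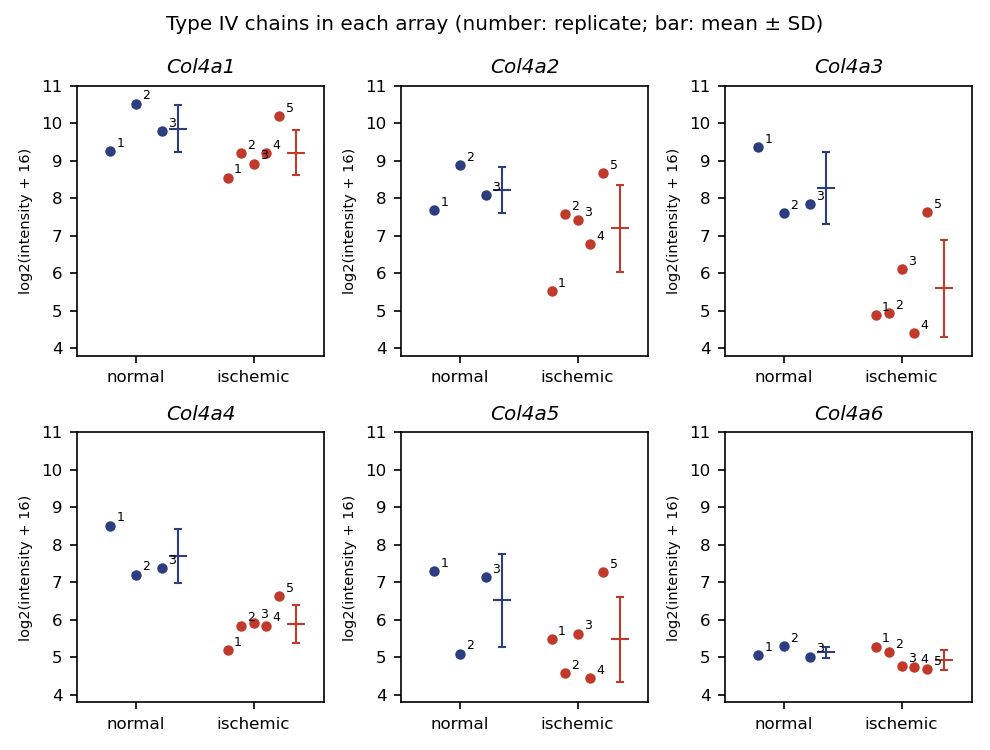
Log2(intensity + 16) of the 6 type IV chains in each normal (blue, n = 3) and ischemic (red, n = 5) array, numbered by replicate, with the mean ± SD of each group beside the points. Col4a4 is the chain whose groups do not overlap, and ischemic 5 is the highest ischemic array for every chain except Col4a6.

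Marker lists of nephron cells are given beside the type IV chains, and those of tubules separated the groups. Proximal tubule markers had list means of 5.46 to 7.84 in ischemic and 9.06 to 10.94 in normal arrays, with a median difference of -3.65. All 8 were lower at an unadjusted p under 0.05, against 5.02% of all genes. Markers of the distal nephron and collecting duct had means of 5.70 to 7.02 against 8.60 to 8.80, with a median of -2.47. Here 6 of 7 were lower at an unadjusted p under 0.05, against the same 5.02%. For podocytes, which make the Col4a3, Col4a4 and Col4a5 network, 6 markers were measured. Their means were 6.16 to 7.25 in ischemic and 6.29 to 7.21 in normal arrays, with a median difference of -0.13. None had an unadjusted p under 0.05, against 7.13% of all genes in either direction. Of the podocyte genes, Podxl, Synpo and Ptpro reached the median gene level and differed by -1.06, -0.73 and 0.62. Wt1, which lay below the lower quartile, Nphs1 and Plce1 differed by 0.44, 0.03 and -0.30. None of these marker genes passed the limma adjusted p threshold of 0.05. The part of nephron cells in the Col4a3 and Col4a4 differences was not tested.

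The mean of 10 endothelial markers varied widely among the ischemic arrays, as did several basement membrane chains. It was 6.56, 6.73, 7.45, 8.10 and 9.27 in ischemic arrays 1 to 5 and 7.47, 9.13 and 8.92 in normal arrays 1 to 3. Ischemic 1 was the lowest and ischemic 5 the highest ischemic array. The same held for Col4a1, Col4a2, Col4a4, Col18a1 and Col12a1 and for the fibrillar chains Col5a2 and Col5a3. These chains were named for that order, which most chains did not share. Of all 42 chains, ischemic 1 was the lowest ischemic array in 13 but the highest in 14. Ischemic 5 was the highest in 11 and the lowest in 7. These counts include dim chains near the floor, whose order cannot be resolved. The median difference of the endothelial list was -1.14. Of its 10 genes 1, Ehd3, was lower at an unadjusted p under 0.05, against 5.02% of all genes. The part of endothelial RNA in these chains was not tested.

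**Figure D3:**
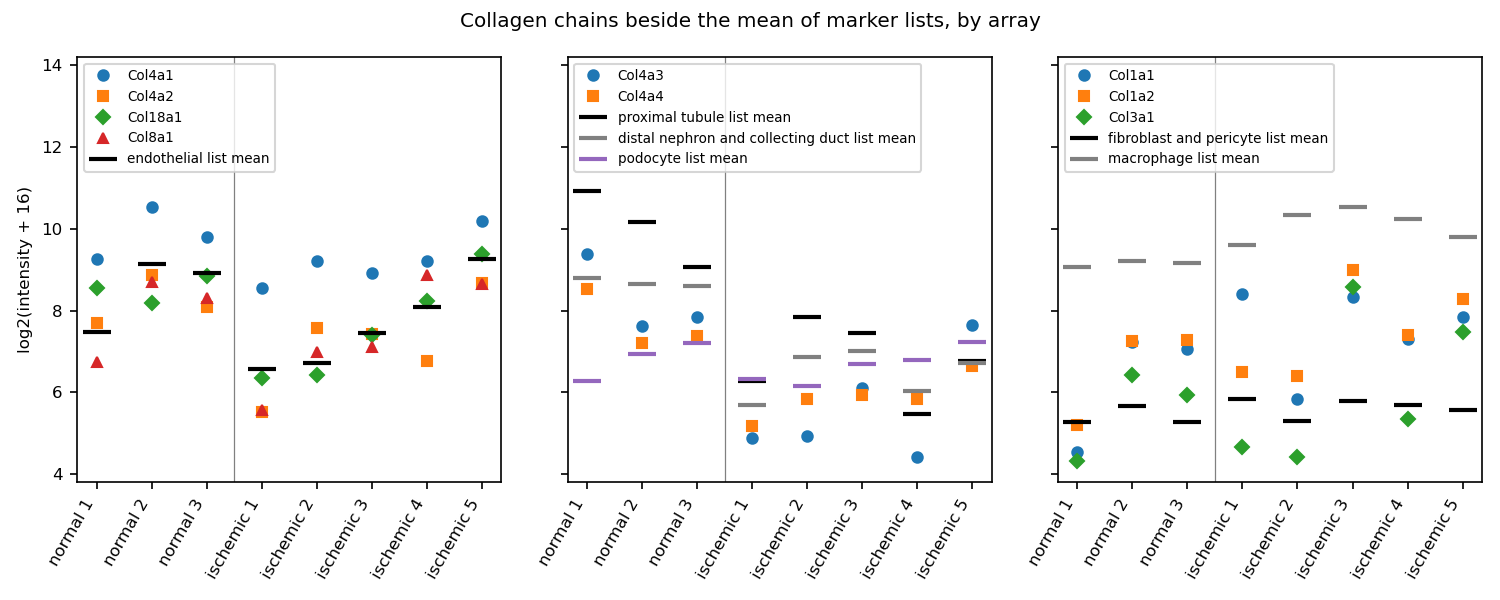
Log2(intensity + 16) of collagen chains (coloured symbols) and means of marker lists (bars) in each of the 8 arrays, for endothelial, nephron, and fibroblast and macrophage lists from left to right. Levels of different genes are not comparable with each other; the order of arrays within each series is, for example the endothelial mean of 6.56 in ischemic 1 and 9.27 in ischemic 5.

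The fibrillar chains had mostly small positive differences, none of which passed the test. Of 11 chains, 8 were positive and 3 negative, with a median of 0.21. This median was 0.12 without normal 1, 0.07 under ribosomal scaling without the Rps6k kinases and 0.43 within the high Xist arrays. Col1a1 and Col1a2, the chains of type I collagen, had the highest positive differences, at 1.27 and 0.93. Col27a1, a fibrillar collagen known chiefly from cartilage, had the only fibrillar unadjusted p under 0.05, with a difference of -1.85. The mean of the 11 chains was 5.82, 5.49, 6.34, 5.66 and 6.28 in ischemic arrays 1 to 5 and 5.13, 6.11 and 5.96 in normal arrays 1 to 3, so the groups overlapped.

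Col1a1 encodes the chain that is most abundant in type I collagen. It read 8.40, 5.85, 8.34, 7.30 and 7.85 in ischemic arrays 1 to 5 and 4.54, 7.22 and 7.07 in normal arrays 1 to 3. Ischemic 2 was below normal arrays 2 and 3, and normal 1 was near the floor. The difference was 1.27 ± 0.77 (SE), with an unadjusted p of 0.14 and a limma adjusted p of 0.86. Without normal 1 it was 0.40, and without ischemic 1 and normal 1 it was 0.18. Within the high Xist arrays, where normal 1 was the only control, it was 2.58. Both probe sets were positive, the second at 0.47.

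Col1a2, whose product joins that of Col1a1 in type I collagen, read 6.497, 6.39, 9.002, 7.41 and 8.29 in ischemic arrays 1 to 5 and 5.21, 7.26 and 7.29 in normal arrays 1 to 3. Ischemic arrays 1 and 2 lay below normal arrays 2 and 3, and normal 1 was the lowest of all. The difference was 0.93 ± 0.73 (SE; limma adjusted p = 0.93) and was 0.24 without normal 1. Col1a1 and Col1a2 correlated over the 8 arrays with r = 0.77 (exact permutation p = 0.025, adjusted p = 0.074) and rho = 0.62 (exact permutation p = 0.11, adjusted p = 0.26). Without ischemic 2 and normal 1, r was 0.26 (exact permutation p = 0.60, adjusted p = 0.90). With the mean of probe sets and without ischemic 3 and normal 1, r was 0.74 (exact permutation p = 0.11, adjusted p = 0.32). Leaving out the extreme arrays narrows the range, so a lower r does not show what the relation rested on.

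Col3a1, the chain of type III collagen, lay outside the naming rule and was chosen after its values were seen. It read 4.67, 4.41, 8.57, 5.34 and 7.48 in ischemic arrays 1 to 5 and 4.33, 6.43 and 5.95 in normal arrays 1 to 3. Ischemic 3 and 5 were the highest arrays for this chain, and ischemic 1, ischemic 2 and normal 1 were near the floor. These 3 low arrays are the ones with high Xist signal. The difference was 0.53 ± 1.02 (SE; limma adjusted p = 0.97). The remaining fibrillar chains, Col2a1, Col5a1, Col5a2, Col5a3, Col11a1, Col11a2 and Col24a1, had differences between -0.21 (Col5a3) and 0.75 (Col5a1), and every one of these probe sets was below the median level of all genes.

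Col27a1 was the fibrillar chain whose groups did not overlap. It read 8.49, 8.59, 7.72, 5.30 and 7.87 in ischemic arrays 1 to 5 and 9.42, 10.03 and 8.88 in normal arrays 1 to 3. All 5 ischemic arrays were below all 3 controls, and ischemic 4 was far below the rest. The difference was -1.85 ± 0.72 (SE), with an unadjusted p of 0.032 and a limma adjusted p of 0.62. The unadjusted p was 0.071 without normal 1 and 0.11 without normal 2, and the difference was -1.27 without ischemic 4. Within the low and high Xist arrays the differences were -2.49 and -0.88.

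The second Col27a1 probe set, fitted among all probe sets with 1 symbol, read 5.17, 5.85, 6.13, 5.03 and 5.63 in ischemic and 7.14, 6.75 and 6.91 in normal arrays. Its groups did not overlap either, with a difference of -1.37 ± 0.29 (SE). Proximal tubule marker means showed the same separation of the groups, with ischemic 4 the lowest ischemic array at 5.46, and their part in the Col27a1 difference was not tested. Over the 8 arrays, the genes among 9096 searched whose levels were most like those of Col27a1 were Atg10 (Pearson's r = 0.96), Sgk2 (r = 0.95) and Ldhd (r = 0.95). For Col1a2 they were Hnrnpc (r = 0.98), Ctsb (r = 0.96) and Thoc5 (r = 0.96). These are descriptions over 8 arrays that share the same scaling.

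**Figure D4:**
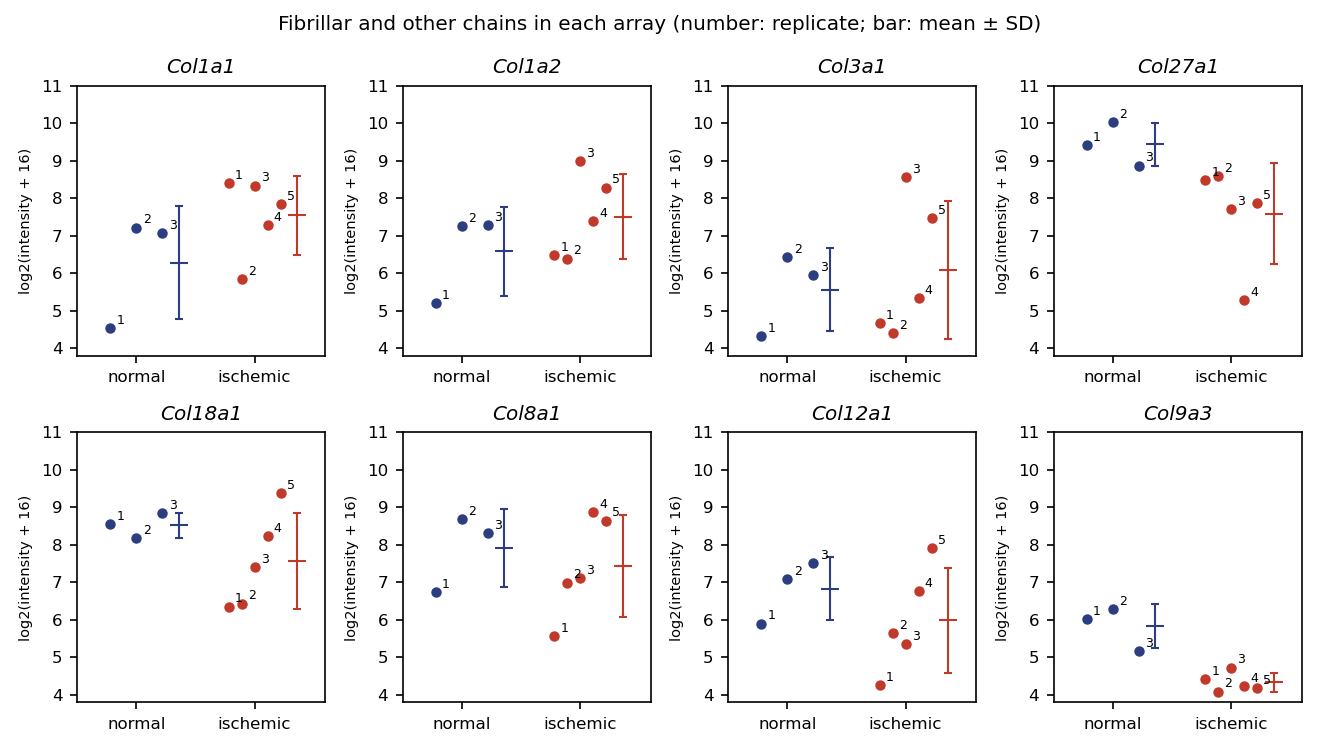
Log2(intensity + 16) of 4 fibrillar chains (upper row) and 4 other chains (lower row) in each normal (blue, n = 3) and ischemic (red, n = 5) array, numbered by replicate, with the mean ± SD of each group. The groups do not overlap for Col27a1 and Col9a3, and normal 1 is the lowest array for Col1a1, Col1a2 and Col3a1.

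Chains of neither class had a median difference of 0.04, with 14 of 25 positive and 11 negative. Only Col9a3 had an unadjusted p under 0.05, at a level near the floor in ischemic cells. The basement membrane zone chain Col18a1 and the vascular chain Col8a1 had differences of -0.97 and -0.48, within the spread between arrays.

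Col9a3 encodes a fibril-associated chain of cartilage. It read 4.42, 4.09, 4.73, 4.24 and 4.18 in ischemic arrays 1 to 5 and 6.03, 6.30 and 5.17 in normal arrays 1 to 3. Ischemic values were close to the floor, and every control was above them. The difference was -1.50 ± 0.30 (SE), with an unadjusted p of 0.00087 and a limma adjusted p of 0.15, and -1.42 without ischemic 1 and normal 1. Of its 3 probe sets this was the only one whose groups did not overlap: the others differed by 0.20 and -0.02, and the mean of the 3 sets by -0.44. Without normal 3 the difference was -1.83, with a limma adjusted p of 0.043.

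Col18a1, whose C-terminal fragment is endostatin, read 6.36, 6.43, 7.40, 8.23 and 9.39 in ischemic arrays 1 to 5 and 8.55, 8.18 and 8.85 in normal arrays 1 to 3. The ischemic arrays ran from far below to above the controls. The difference was -0.97 ± 0.67 (SE; limma adjusted p = 0.90), -0.18 within the low Xist arrays and -2.16 within the high Xist arrays. Its second probe set had the opposite sign, at 0.21. The genes most like Col18a1 over the 8 arrays were Akap2 (Pearson's r = 0.99), Plscr4 (r = 0.98) and Slc22a4 (r = 0.98).

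Col8a1, a short-chain collagen of vessel walls, read 5.58, 6.998, 7.11, 8.88 and 8.65 in ischemic arrays 1 to 5 and 6.75, 8.70 and 8.32 in normal arrays 1 to 3. The groups overlapped, with ischemic 1 the lowest array. The difference was -0.48 ± 0.79 (SE; limma adjusted p = 0.96) and -0.01 without ischemic 1. Its level over the 8 arrays was most like those of Sox18, a transcription factor of endothelium (Pearson's r = 0.99), Unc13b (r = 0.97) and Lepr (r = 0.97). For Col4a1 the most similar genes were Cd59a (r = 0.96), Nes (r = 0.95) and Ccdc66 (r = 0.95), and for Col4a2 they were Ctsf (r = 0.98), Kcne3 (r = 0.97) and Rnf215 (r = 0.96).

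Col12a1, a fibril-associated chain of interstitial matrix, read 4.26, 5.64, 5.35, 6.77 and 7.91 in ischemic arrays 1 to 5 and 5.90, 7.09 and 7.51 in normal arrays 1 to 3. Ischemic 5 was the highest of all arrays and ischemic 1 the lowest. The difference was -0.85 ± 0.78 (SE; limma adjusted p = 0.94), -0.42 without ischemic 1 and negative for all 4 of its probe sets.

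Col25a1 and Col20a1 had differences near 0, at -0.04 ± 0.59 and -0.10 ± 0.47 (SE; limma adjusted p of 0.99 and 0.98). Col25a1, a transmembrane collagen, read 8.36, 6.26, 6.03, 6.15 and 5.70 in ischemic arrays 1 to 5 and 7.16, 6.10 and 6.37 in normal arrays 1 to 3. Col20a1, a fibril-associated chain, read 7.36, 6.99, 5.603, 6.71 and 5.66 in ischemic and 7.15, 6.12 and 6.41 in normal arrays. Both were highest in ischemic 1, and their signs turned under several alternatives.

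The other 19 chains of neither class had differences from -0.35 (Col8a2) to 0.76 (Col9a2), with 14 positive and 5 negative, and no unadjusted p under 0.14. The 5 type VI chains, which form beaded microfibrils in the interstitium, had differences from -0.07 (Col6a2) to 0.36 (Col6a3), and all 5 probe sets were below the median level of all genes. The 3 remaining transmembrane chains, Col13a1, Col17a1 and Col23a1, differed by 0.06 to 0.21. An unused probe set of Col23a1 was higher in every ischemic array than in every normal array, by 0.66 ± 0.28 (SE; unadjusted p = 0.045, limma adjusted p = 0.77 over probe sets), whereas its other 2 sets overlapped. The Col23a1 set that did not overlap was dim and was named after its values were seen. Over all genes, 1.89% were apart in that direction. Of the 27 chains with more than 1 probe set, 14 had all sets of 1 sign, and the share over all genes was not computed.

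**Figure D5:**
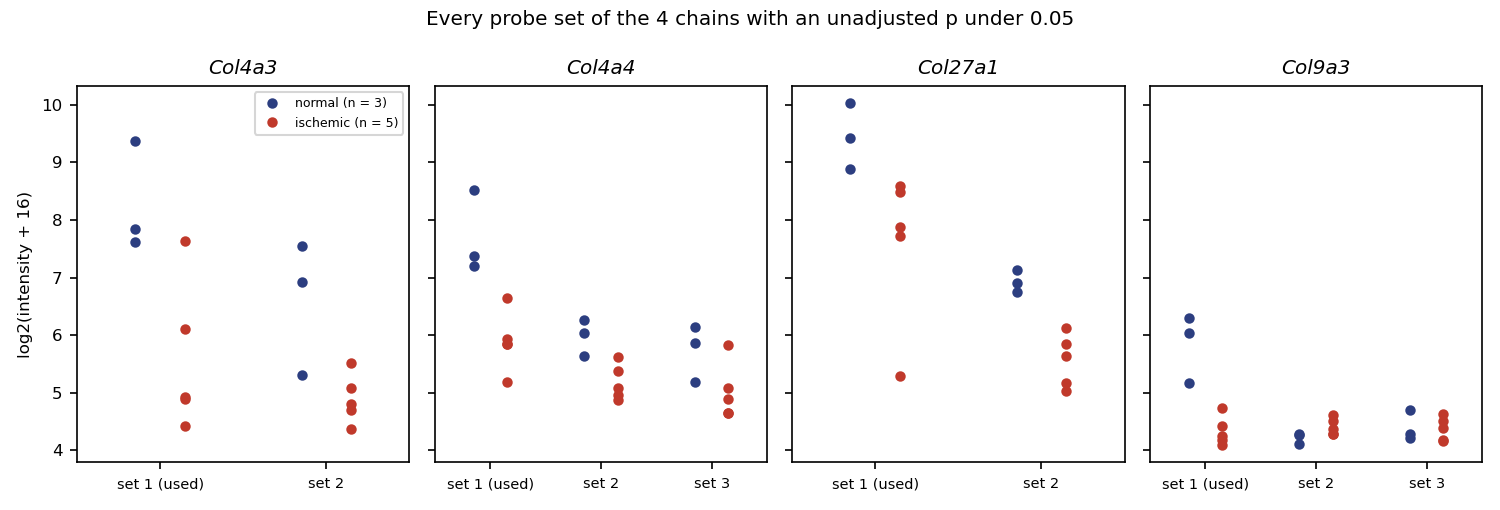
Log2(intensity + 16) of every probe set of the 4 chains with an unadjusted p under 0.05, in 3 normal (blue) and 5 ischemic (red) arrays. For Col27a1 both sets separate the groups, for Col4a4 2 of 3, for Col4a3 neither, and for Col9a3 1 of 3.

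Of 24 measured genes that modify and process collagen chains, 11 had positive and 13 negative differences, with a median of -0.03. Here 1 gene was higher and 2 were lower at an unadjusted p under 0.05 (against 2.11% and 5.02% of all genes), and the groups did not overlap in these 3 (against 5.33%). The list's median changed sign between alternatives, from -0.28 under ribosomal scaling without the Rps6k kinases to 0.10 within the high Xist arrays. P3h2, a prolyl 3-hydroxylase that acts on type IV collagen, read 4.50, 4.58, 5.96, 5.08 and 5.96 in ischemic arrays 1 to 5 and 8.03, 7.45 and 6.95 in normal arrays 1 to 3. Its difference was -2.26 ± 0.44 (SE; limma adjusted p = 0.15). Pcolce, the enhancer of the C-proteinase that matures fibrillar procollagens, had ischemic values of 4.26 to 6.15 and normal values of 6.56 to 7.92, and differed by -2.02 ± 0.52 (SE; limma adjusted p = 0.25).

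Crtap, a subunit of the prolyl 3-hydroxylation complex, had ischemic values of 7.25 to 7.80 and normal values of 6.10 to 7.20. The difference was 0.82 ± 0.30 (SE; limma adjusted p = 0.55). P4ha2, a catalytic subunit of the prolyl 4-hydroxylase that stabilises the helix, differed by -0.96 ± 0.57 (SE; limma adjusted p = 0.86). None of these genes passed the adjusted threshold.

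Among laminins and other partners of type IV collagen, 12 of 16 measured genes were negative and 4 positive, with a median of -0.28, and 2 were lower at an unadjusted p under 0.05 (against 5.02% of all genes). The median was -0.03 without normal 3, -0.84 without normal 1 and -0.83 with the replicate block. Lamb1, the laminin beta 1 chain, read 5.04, 6.17, 7.05, 5.64 and 6.81 in ischemic arrays 1 to 5 and 7.83, 8.06 and 7.59 in normal arrays 1 to 3. All ischemic arrays were below the controls, and the difference was -1.68 ± 0.46 (SE; limma adjusted p = 0.29). Lama4, a laminin chain of vessels, differed by -0.99 ± 0.38 (SE; limma adjusted p = 0.61). Hspg2, which encodes perlecan, differed by -0.68 ± 0.59 and Lama1 by 0.51 ± 0.42 (SE; limma adjusted p of 0.94 and 0.93).

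Of 9 collagen receptors measured, 6 were positive and 3 negative, with a median of 0.18, which was -0.14 without ischemic 1. Groups did not overlap in 1 receptor in each direction: Ddr1 was lower, and Itga10, an integrin of cartilage named after its values were seen, was at 4.45 to 4.86 in ischemic and 4.36 to 4.41 in normal arrays (difference 0.19 ± 0.19, SE). Over all genes, 3.44% were apart lower and 1.89% higher. Ddr1, the discoidin domain receptor of epithelia, was at 6.86 to 8.28 in ischemic and 8.41 to 9.43 in normal arrays, with a difference of -1.04 ± 0.37 (SE; unadjusted p = 0.022, limma adjusted p = 0.53). Itga1, the alpha 1 integrin that binds type IV collagen, differed by -0.97 ± 0.77, and its common partner Itgb1 by 0.48 ± 0.26 (SE; limma adjusted p of 0.93 and 0.83). Lair1, an inhibitory collagen receptor of leukocytes, differed by 0.59 ± 0.38 (SE; limma adjusted p = 0.88). Macrophage markers had means of 9.60 to 10.54 in ischemic and 9.06 to 9.21 in normal arrays. All 8 were positive, and 4 were higher at an unadjusted p under 0.05, against 2.11% of all genes. The part of macrophage RNA in the Lair1 value was not tested. Smooth muscle and mesangial markers (5 measured) had a median difference of 0.33.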

How the data were processed

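GFP-positive kidney cells of 8 mice were profiled, 1 array each (5 ischemic, 3 normal by title). Per the labels' protocols, RNA was isolated with Qiagen miRNeasy and amplified with NuGEN WT-Ovation Pico before hybridisation. The deposited values are linear intensities of probe sets in 1 table; the software and scaling were not given in the sources used here. Of 45101 probe sets, 64 controls were left out, 34945 had 1 gene symbol in the platform annotation, 932 had several and 9160 were not listed there.

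Intensities were taken as log2(value + 16) and quantile normalized. Each gene was represented by whichever of its probe sets had the highest mean of the 8 arrays. All 42 chains matched a RefSeq gene ID. Groups were compared with limma 3.58.1 in R 4.3.3 (lmFit, eBayes, Benjamini-Hochberg over 18193 genes). The fit was tested on simulated data with differences larger than that of any collagen chain. How it performs at smaller differences was not tested. Exact permutation tests enumerated all pairings of the arrays in Python 3.11.15, with ranks from scipy 1.17.1. Figures used matplotlib 3.10.9. The number of arrays limits the precision. An effect of RNA amplification on the spread was not tested.

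Described with every array were chains at or above the median level of genes, or with an unadjusted p under 0.05 or groups that do not overlap (13 chains). Of each list of processing enzymes, basement membrane partners and receptors, the 4 genes of lowest p were named. Those genes are given with every array, with a range or with the difference alone. Gene likeness, for the 2 brightest chains of each class, was the highest 3 Pearson correlations among the 9096 other genes of at least median level. The members, the marker lists and the pathway lists were chosen with earlier results of these data known. Alternatives changed the scaling, pseudocount, filter, probe set rule, eBayes settings, array weights, Xist class, replicate block and each array left out.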

Additional observations from a re-analysis of the deposited data

Results flagged for a closer look

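Among the ischemic groups of the 13 chains described with every array, 2 held an array whose gap to the nearest other, divided by the range, was above Dixon's critical value of 0.710 for 5 samples; chance gives about 1 in 20 groups. Col27a1 was 5.30 in ischemic 4, against 7.72 to 8.59 in the other 4 ischemic arrays (gap over range 0.735). Col25a1 was 8.36 in ischemic 1, against 5.70 to 6.26 in the others (gap over range 0.791).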

How the results depend on the processing

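No chain had an adjusted p under 0.05 except under the settings named here. Centring on ribosomal protein genes gave 144 genes past the threshold (2 higher, 142 lower) and 1 chain, Col4a4, at -2.01; without the Rps6k kinases, a version chosen after seeing the data, it gave 152 (2 higher, 150 lower) and 1 chain, Col4a4, at -2.03. Pseudocount 1 gave 1 gene (1 lower), the filter on dim genes 15 (15 lower), the mean of probe sets 2 (2 lower), the eBayes trend 31 (1 higher, 30 lower), array weights 5 (5 lower) and the Xist covariate 1 (1 lower). Leaving out each array gave 0 to 113 genes (0 to 8 higher, 0 to 105 lower) and 0 to 1 chains, the highest without normal 3, when the chain was Col9a3; genes with an unadjusted p under 0.05 numbered 808 (without normal 1) to 1714. Chains lower at an unadjusted p under 0.05 were 3 to 8 (8 without ischemic 5), and chains higher 0 to 1. Without ischemic 1 and normal 1, also chosen after seeing the data, 2 chains were lower. The Xist covariate gave 2 higher.

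With the replicate block, 10 chains were lower and 1 higher at an unadjusted p under 0.05 (limma), against 1406 of all 18193 genes in either direction. Col25a1 was at 0.34 and Col20a1 at 0.092. Ischemic 4 and ischemic 5 have no normal array of the same number, so they do not enter the difference in that fit. The titles give replicate numbers but state no pairing. Deviations of same-numbered arrays from their group means correlated by 0.16, -0.09 and 0.10. With 3 normal arrays, these values cannot decide whether same-numbered arrays were paired.

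The median of all chains was -0.21 with the filter and -0.14 in low Xist arrays. The median of other chains was -0.086 and -0.10 under the ribosomal scalings, -0.096 with the filter and -0.084 in low Xist arrays. The type IV median ran from -1.71 (high Xist) to -0.62 (array weights), and from -1.44 to -0.82 with single arrays left out. The receptor median was -0.03 and -0.04 under the ribosomal scalings, -0.04 with array weights, -0.04 in high Xist arrays, and from -0.14 to 0.24 with single arrays left out. Col25a1 turned to 0.019 (pseudocount 64), 0.17 (mean of probe sets), 0.39 (highest variance) and 0.15 (high Xist), with -0.51 to 0.27 on leaving out arrays; Col20a1 was 0.023 (high Xist) and -0.32 to 0.20. Col1a1 and Col1a2 correlated with r = 0.82 under median centring (exact permutation, adjusted p = 0.030) and 0.89 with mean probe sets (adjusted p = 0.013). Col4a1 and Col4a2 correlated with 0.84 without 2 arrays. For Col4a5 and Col4a6, r was -0.20 in the main setting, -0.34 under median centring, 0.041 without 2 arrays and 0.039 with mean probe sets. The causes were not tested. Dim chains near the floor have no resolvable order.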
